A study of Caenorhabditis elegans with 2 samples.

Results

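Candidate regions of an eGFP-NHR-28 chromatin immunoprecipitation whose summits lay inside autosomal exons, away from gene starts, are described here. The members were selected on measured values. The pooled list of 20876 regions was ranked by its signal, the 5000 strongest were kept, and 4022 of those were autosomal. Of these, 598 had the summit in an exon of a protein-coding gene and in no window from 1000 bp upstream to 500 bp downstream of the start of a protein-coding gene. They lay in 570 host genes, 3.81% of the 14957 autosomal protein-coding genes with exon sequence outside promoter windows. The other autosomal regions of the 5000 had the summit in a promoter window (1371), in an intron (1087) or between genes (966). The exonic regions ranked below 5000, 2324 in all, passed the same position rule with a lower signal and serve as the comparison for position and sequence.

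All libraries came from 1 group, so the data hold no treated and untreated samples. The animals were whole L3 larvae of Caenorhabditis elegans strain OP317, genotype unc-119(ed3) III; wgIs317, with males and females pooled and age not known. The transgene wgIs317 carries nhr-28 tagged with eGFP, and OP317 is a single transgenic strain. There were 2 biological replicates, from separate biosamples. Cells of every tissue are mixed in such material, and fewer cells that bind at a site and weaker binding in each cell cannot be told apart. The labels also point to a control, not analysed here.

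NHR-28 belongs to the nuclear hormone receptors, transcription factors with a zinc finger DNA-binding domain and a ligand-binding domain, a family that is greatly expanded in nematodes. Sites of C. elegans transcription factors are mostly found just upstream of genes, where the factors act on the start of transcription. Exons are transcribed and mostly translated, so their sequence is held by the protein it encodes.

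Sequences at the centre of coding members come first, to show the kind of DNA the regions cover. The first 4 are the strongest members on chromosomes II to V whose window of 120 bp around the summit lay wholly in coding sequence and in no annotated untranslated part, and stronger coding members without such a window are not shown. Each is read 5′ to 3′ on the strand of the host gene from the RefSeq genome of build WBcel235, the same assembly as ce11, and the capitals mark the 20 bases at the summit. F53F1.6 is the region at chrV:13416447-13416566 on the minus strand. DH11.2 is at chrII:8013859-8013978 on the plus strand. mthf-1, which encodes methylenetetrahydrofolate reductase, is shown at chrII:7775555-7775674 on the minus strand. dpy-4, a cuticle collagen gene, is shown at chrIV:14985816-14985935 on the minus strand. The strongest member regions of metr-1, the methionine synthase gene and the gene with the most members, are at chrII:10927828-10927947 and chrII:10928659-10928778 on the plus strand.
F53F1.6: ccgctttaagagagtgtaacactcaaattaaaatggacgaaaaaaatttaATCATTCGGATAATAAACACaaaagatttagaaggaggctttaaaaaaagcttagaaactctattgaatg
DH11.2: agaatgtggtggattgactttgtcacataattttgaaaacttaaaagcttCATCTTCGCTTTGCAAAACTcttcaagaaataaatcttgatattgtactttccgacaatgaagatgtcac
mthf-1: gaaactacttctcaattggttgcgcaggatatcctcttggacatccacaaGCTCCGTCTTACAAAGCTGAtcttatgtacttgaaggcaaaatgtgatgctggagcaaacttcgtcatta
dpy-4: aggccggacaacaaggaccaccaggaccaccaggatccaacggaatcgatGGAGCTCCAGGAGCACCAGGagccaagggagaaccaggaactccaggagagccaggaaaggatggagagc
metr-1, summit 1326 bp from the start: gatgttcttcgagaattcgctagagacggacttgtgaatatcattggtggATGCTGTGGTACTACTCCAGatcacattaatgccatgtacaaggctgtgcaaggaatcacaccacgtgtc
metr-1, summit 2157 bp from the start: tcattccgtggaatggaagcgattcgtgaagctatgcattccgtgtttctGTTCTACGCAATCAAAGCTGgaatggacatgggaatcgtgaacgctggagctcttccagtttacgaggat

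These windows differ widely in composition. GC content was 29.2% in F53F1.6, 32.5% in DH11.2, 42.5% in mthf-1 and 60% in dpy-4, and 45.8% and 47.5% in the metr-1 windows at 1326 and 2157 bp. The dpy-4 window is rich in the repeated glycine and proline codons of a collagen.

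Exons held a smaller share of the strongest regions than of the weaker ones. Of the autosomal regions among the 5000 strongest, 14.9% were members (exact 95% binomial interval 13.8 to 16.0), against 17.9% (17.2 to 18.5) of the 13012 autosomal regions ranked lower. Exon sequence outside promoter windows made up 21.1% of autosomal bases. These intervals cover the counting of regions only, since the lists give no read counts and depth is unknown.

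The share was lowest at the top of the list. It was 8.66% at ranks 1 to 162 (11 of 127 autosomal regions), 11.5% at ranks 163 to 500, 12.8% at ranks 501 to 1000 and 15% at ranks 1001 to 2000. From rank 2001 to rank 5000 it lay between 15.1% and 16.3% per 1000 ranks. Promoter windows went the other way, with 60.6% of the autosomal regions at ranks 1 to 162 and 29.7% at ranks 15001 to 20876. The exon share of the strongest 5000 was 18.7% in the list of replicate 1 and 16.1% in that of replicate 2, against 19.7% and 18% of the lower ranks of those same lists, so the gap between strong and weak regions was narrower in either replicate than in the pooled list.

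**Figure D1:**
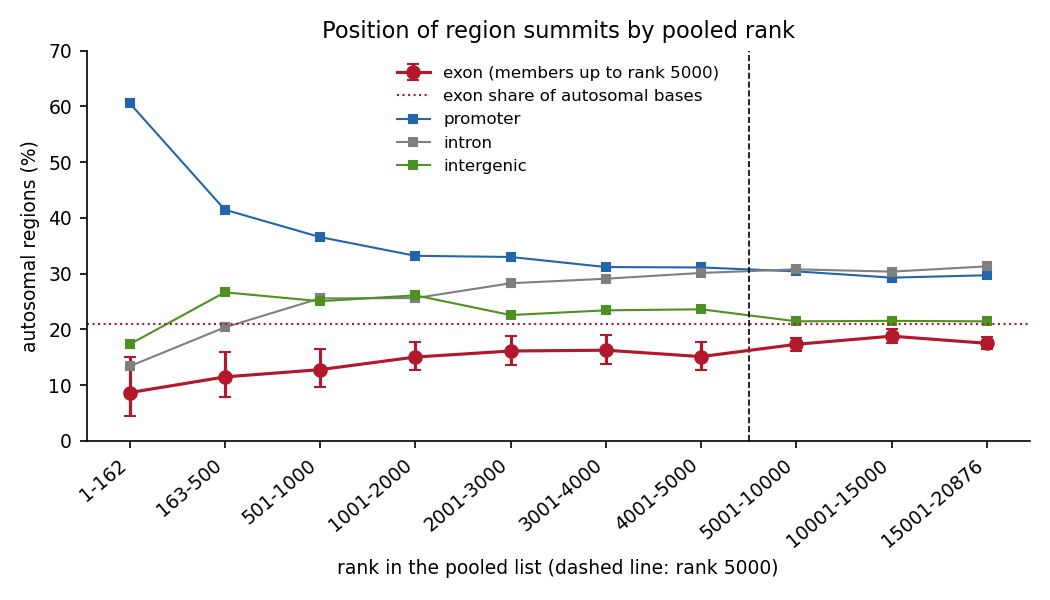
Share of autosomal regions (%) with the summit in an exon, promoter window, intron or between genes, by rank in the pooled list. Bars on the exon points are exact 95% binomial intervals, and the exon share lies at 8.66% for ranks 1 to 162 and stays under the dotted 21.1% exon share of autosomal bases in every range.

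Members were spread over the autosomes much as exon sequence is. Chromosome V held 150 (25.1%, with 24.8% of exon bases outside promoter windows), II 122 (20.4%, 19.0%), IV 114 (19.1%, 19.1%), III 111 (18.6%, 17.6%) and I 101 (16.9%, 19.5%).

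The signal that chose the members ran from 15.7 to 59.8, with a median of 17.8. Medians were 18.3 for promoter, 17.8 for intron and 18.1 for intergenic regions of the same 5000. Signals are the authors' values per region, on a scale that is not stated, and have no replicate spread of their own. Just inside rank 5000 lay regions in smap-1 (15.6879, rank 4987), nstp-6 (15.6823, rank 4994) and M01H9.3 (15.6821, rank 4995). Just outside lay regions in C14B4.2 (15.677, rank 5003), rtel-1 (15.6597, rank 5023) and C02B10.3 (15.6576, rank 5026), so the limit falls on no step in the signal.

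Most regions in this range of ranks, members included, carried weak statistical support in the deposited list. The members' q values, taken back from the deposited −log10 values, had a median of 0.587 and lay between 0.00592 and 0.741, and 21 of 598 had a q of at most 0.05, against 6.12% of all 5000. The q value follows rank closely, so this count too rests on the rule. The final set that the authors kept by the irreproducible discovery rate (IDR), 162 regions, is the first 162 ranks of the pooled list, and 11 members (1.84%) were in it, against 3.24% of all 5000. For promoter, intron and intergenic regions the shares were 5.62%, 1.56% and 2.28%. Rank chose the members and also fixes this count, so it is a description.

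Few members ranked high in both replicates. A region overlapping by at least 1 bp was found in both replicate lists, of 30000 regions each, for 370 members (61.9%, interval 57.8 to 65.8), against 65.7% of all 5000, 68.6% of promoter, 62.9% of intron and 66.4% of intergenic regions. For 56 members (9.36%) the region was among the 5000 strongest of both replicates, against 12.7% of all 5000, 15.3% of promoter, 10.2% of intron and 12.2% of intergenic regions. The members thus lay a little under the background by both measures, with intron regions close to them.

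Replicate 2 ranked the members higher than replicate 1 did, as it did the 5000 strongest as a whole. Regions overlapped 68.9% of members in replicate 1 and 93.0% in replicate 2, against 71.6% and 93.9% of all 5000. No region of replicate 1 overlapped 186 members, whereas 42 lacked one in replicate 2. Among the 5000 strongest, 125 members were there in replicate 1 only, 269 in replicate 2 only and 148 in neither. The median rank of the members found was 5768 in replicate 1 and 3939.5 in replicate 2, against 6099 and 3605.5 for all 5000, and 4 members ranked 500 or better in both. For lower-ranked exonic regions the medians were close, 11666 and 11629.5, though regions overlapped 51.2% of them in replicate 1 and 69.9% in replicate 2. Neighbouring members can overlap the same replicate region, and each then takes its rank.

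**Figure D2:**
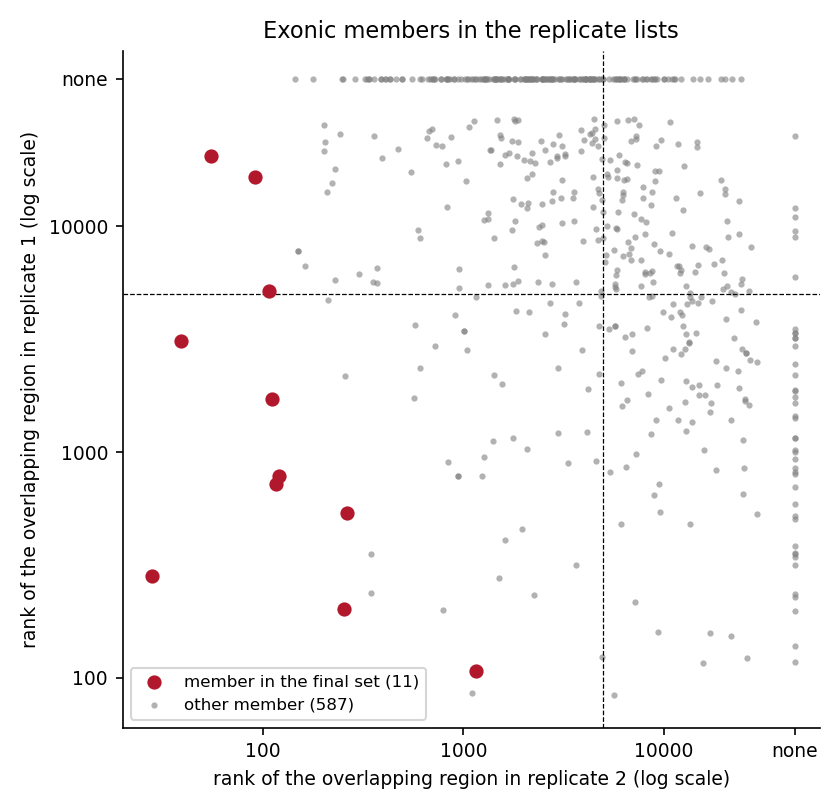
Rank of the overlapping region in replicate 2 (x axis, log scale) and replicate 1 (y axis, log scale) for each of the 598 members, with "none" where no region overlapped. The 11 members in the final set (red) lie at the left, all ranked 1155 or better in replicate 2, while their ranks in replicate 1 run from 107 to 20517; dashed lines mark rank 5000.

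The 11 members in the final set had their summits in 5′ untranslated, coding and 3′ untranslated sequence in like numbers (3, 4 and 4). C34C12.2 held the strongest, at chrIII:3456242-3456581, with a pooled signal of 59.8 and rank 281 in replicate 1 and 28 in replicate 2. Its summit lay 2626 bp from the gene start, in a first exon of 2829 bp that is 5′ untranslated at that point. By the worse of its ranks in the 2 replicates, this was 1 of the 5 best members.

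Of the other 5′ untranslated summits, srh-2, a chemoreceptor gene of the srh family, had a signal of 42.1 at chrV:731289-731628 with ranks 535 and 262 in replicates 1 and 2. In gldi-8 the signal was 35.5 at chrIII:12598640-12598979 with ranks 107 and 1155. Both summits fell in the promoter window of a further annotated transcript start.

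Coding summits in the final set were those of nhr-68, suro-1, wdr-23 and F53F1.6. nhr-68 encodes a nuclear hormone receptor that activates propionate breakdown genes in C. elegans. Its member at chrV:11575344-11575683 had a signal of 36.7, with rank 5176 in replicate 1 and 108 in replicate 2, and lay in the last exon, 195 bp from the gene end. A second region of the final set stood 356 bp upstream of the same gene, with a signal of 39.8 and ranks 924 and 65. The gene therefore carried a strong region at each end. The nhr-68 exon summit was also in the window of another transcript start, as was that of wdr-23, which encodes an adaptor of a ubiquitin ligase that restrains the stress factor SKN-1 in C. elegans. The wdr-23 signal was 33.7 with ranks 785 and 121. In suro-1 the signal was 33.8 with ranks 1720 and 111, and in F53F1.6, whose sequence is given above, it was 33.1 with ranks 16472 and 91.

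The remainder of the final set had 3′ untranslated summits. In let-754, an adenylate kinase gene, the signal was 38.7 at chrIII:7949965-7950304, with rank 3117 in replicate 1 and 39 in replicate 2. The algn-12 gene encodes a mannosyltransferase of N-glycosylation, and its member had a signal of 36.4 at chrV:8039275-8039614 with ranks 202 and 255, so that its worse rank was the best of all members. lelo-2 had 35.2 with ranks 720 and 116, and T02E9.5 had 34.3 with ranks 20517 and 55. Among these 4 genes, algn-12 and lelo-2 thus ranked within the first 1000 in both replicates, and the other two did so in replicate 2 alone. When every transcript start, not the gene start alone, opened a promoter window, 6 of the 11 remained exonic: those in C34C12.2, let-754, algn-12, T02E9.5, suro-1 and F53F1.6.

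The next 9 members by signal lay below the final set, at 28.4 to 31.1, in F01D5.10, T28F4.1, glb-24, drap-1, mak-1, pyc-1, C48B4.13, adal-1 and nurf-1. Of these, the summits in T28F4.1, drap-1, pyc-1 and nurf-1 fell in the promoter window of another transcript start. T28F4.1 was placed alike by the replicates, with rank 353 in replicate 1 and 345 in replicate 2. pyc-1, the pyruvate carboxylase gene, ranked 84 in replicate 1 and 5642 in replicate 2. For C48B4.13 no region of replicate 1 overlapped, and its rank in replicate 2 was 145. Taking the strongest 20 as a whole, 17 ranked better in replicate 2 and 10 had the summit in the last exon. Of those genes, glb-24 encodes a globin, drap-1 a subunit of the NC2 repressor of transcription, mak-1 a MAPK-activated protein kinase, adal-1 an adenosine deaminase-like protein and nurf-1 the large subunit of the NURF chromatin remodeller.

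Within their genes the members leaned towards the 3′ end. The summit lay in coding sequence for 407 members (68.1%, interval 64.2 to 71.8), against 79.9% of the lower-ranked exonic regions (78.2 to 81.5), while coding sequence was 87.1% of exon bases outside promoter windows. It lay in a 3′ untranslated region (3′ UTR) for 166 (27.8%, 24.2 to 31.5), against 17.6% (16.1 to 19.2) of the lower-ranked regions and 10.5% of the bases. A further 19 were in a 5′ untranslated region and 6 in other exons.

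Other measures of position went the same way. The last exon held 42% of member summits (38.0 to 46), against 32.3% (30.4 to 34.3) of the lower-ranked. Within 500 bp of the gene end lay 42.6% of members, against 31.6%. The median distance from the summit to the gene end was 742 bp for members and 1075.5 bp for lower-ranked regions, while median host gene lengths were close, 3920 bp and 3925 bp. The 3′ UTR summits were a median of 143.5 bp from the gene end (quartiles 51.25 and 381).

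This lean differed between the replicates. In the list of replicate 2, the 5000 strongest regions held 650 autosomal exonic ones, of which 26% (22.7 to 29.6) were in a 3′ UTR, against 17.4% of the lower-ranked exonic regions of that list. In replicate 1 the share was 17.8% of 754 (15.1 to 20.7), against 14.7% (13.6 to 15.8). Without replicate 2 the lean was therefore small, with a 3′ UTR share of 17.8%, a coding share of 79.0% and a last exon share of 31.8% among the strongest, against 14.7%, 83.0% and 27.1% among the lower-ranked regions of replicate 1. By rank, replicate 2 had 34.3% in a 3′ UTR at ranks 1 to 1000 and 19.3% at ranks 4001 to 5000, whereas replicate 1 had 19.7% and 21.8%.

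**Figure D3:**
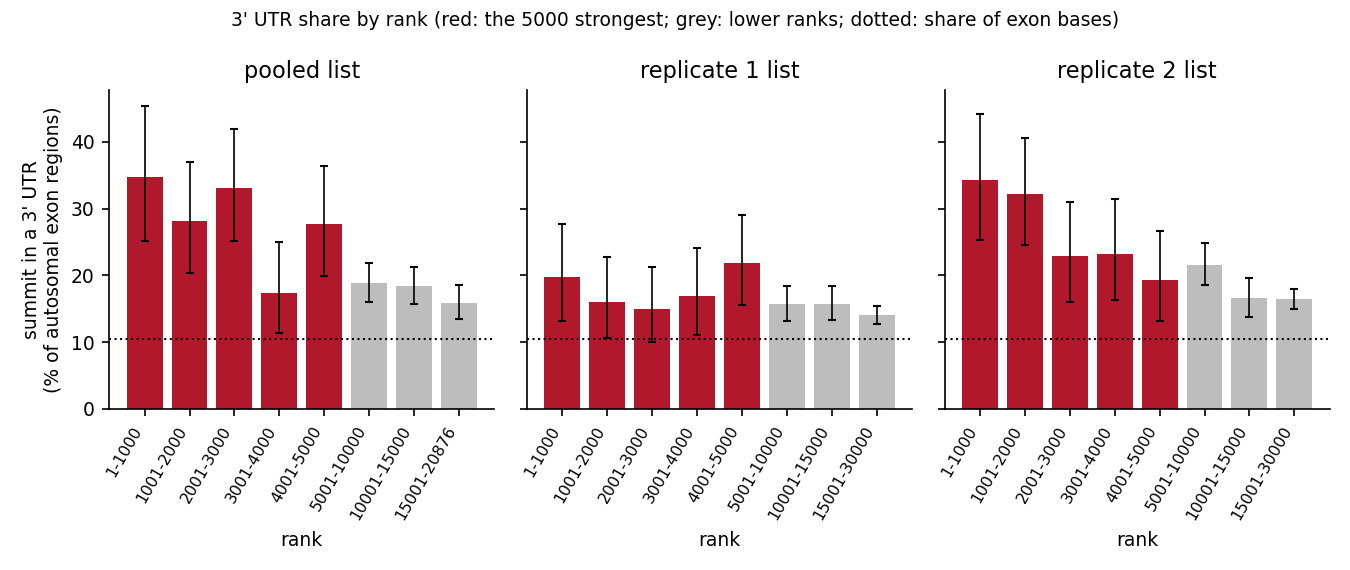
Share of autosomal exonic regions (%) with the summit in a 3′ UTR, by rank, in the pooled list and in each replicate list. Bars carry exact 95% binomial intervals and the dotted line is the 10.5% that 3′ UTRs take of the exon bases; at ranks 1 to 1000 the share was 34.8% in the pooled list, 19.7% in replicate 1 and 34.3% in replicate 2.

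The gene beyond the 3′ end did not set these members apart. For 65.1% of the 166 members with a 3′ UTR summit (57.3 to 72.3) the next protein-coding gene lay end to end with the host, on the other strand, against 64.5% (59.7 to 69.2) of the 409 lower-ranked ones. Median gaps between such genes were 5 bp and 6.5 bp. The position rule itself removes summits that come close upstream of a following gene. The summit lay within 2000 bp upstream of some gene start for 21.4% of all members and 20.7% of the lower-ranked regions. Such a start could be on either strand and on either side of the host, so this is not a share of genes beyond the 3′ end.

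In 63 members (10.5%) the summit fell in the promoter window of a transcript start other than a gene start, against 8.82% of lower-ranked regions. The distance from the host start had a median of 2409.5 bp (interval 2193 to 2725), against 2210 bp (2110 to 2329). Regions were 340 bp wide, and 24.4% of members lay wholly within exons, against 23.8% of the lower-ranked.

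Several genes held more than 1 member. There were 30 such hosts, of which drap-1, nurf-1 and F58D5.5 had 3 members each and metr-1 had 4. With 1 host counted per region, 63 members (10.5%) shared a host with another member. Among the 2324 lower-ranked exonic regions, 523 (22.5%) shared a host with another of them. The sets differ in size, so these shares are not on like terms. The metr-1 summits lay 1037, 1326, 2157 and 2986 bp from the gene start, with signals of 18.7, 20.5, 19.2 and 19.1. All were in coding sequence of exons 4 to 6 of 9. The first pair overlapped 1 region in each replicate, ranked 783 in replicate 1 and 946 in replicate 2, so they are not separate there. The member at 2157 bp ranked 1570 and 10675, and that at 2986 bp ranked 2358 and 2969. A promoter region 211 bp upstream of metr-1 was stronger than any of them, with a signal of 32.3 and rank 58 in replicate 2, and had no overlapping region in replicate 1.

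mthf-1, whose product makes the methyl donor that methionine synthase uses, held a pair of members. The signals were 26 at 1230 bp and 26.8 at 2209 bp from the start, with ranks 408 and 1619 for the first and 5781 and 230 for the second in replicates 1 and 2. The first of them was in 5′ untranslated sequence and in the window of another transcript start. No pooled region lay upstream of mthf-1 within 1000 bp. pyc-1 also held a pair, at 605 bp with a signal of 28.7 and at 3056 bp with 20.5.

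**Figure D4:**
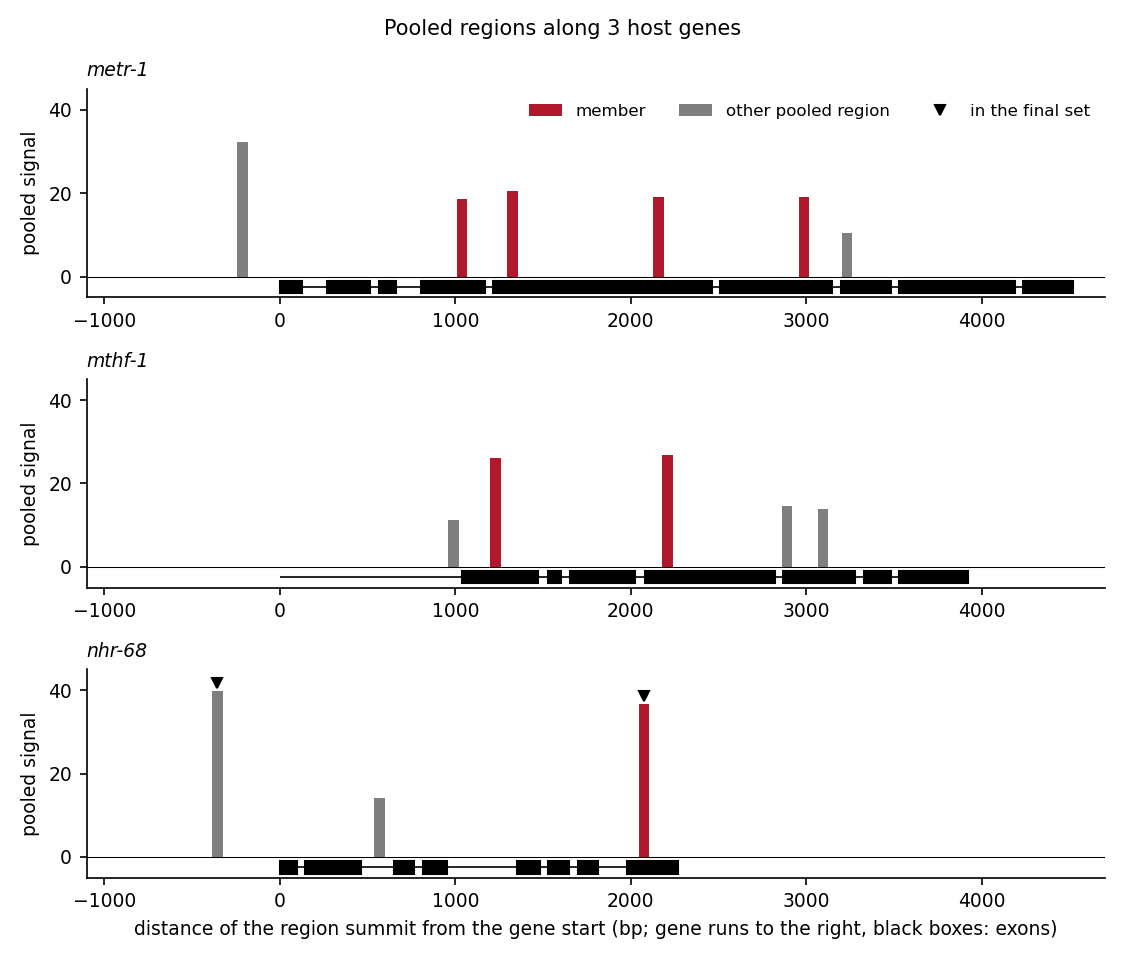
Pooled signal of every region along metr-1, mthf-1 and nhr-68, by distance of its summit from the gene start in bp, with the exons of 1 transcript per gene as black boxes. Red bars are members, grey bars other pooled regions, and triangles mark the final set: metr-1 shows 4 members of 18.7 to 20.5 behind a promoter region of 32.3, mthf-1 a pair of 26 and 26.8, and nhr-68 a final region at each end.

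The 3 drap-1 members had signals of 29, 17 and 20.5 at 1391, 1593 and 2326 bp from the start, and the first pair shared its replicate regions, ranked 7770 and 149. The drap-1 summits at 1391 and 2326 bp fell in the window of another transcript start. The nurf-1 members, at 10341, 12836 and 16613 bp of a gene of 17199 bp, had 17.8, 18.4 and 28.4. F58D5.5 had 16.6, 18.9 and 19.2, all in its 3′ UTR. Neither unc-119, the gene whose rescue marks transgenic animals, nor nhr-28 had a pooled region in the gene or in the 1000 bp upstream. nhr-28 lies on chromosome X and could not have been a host.

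Hosts of lower-ranked exonic regions numbered 2056, and 118 genes were in both sets, 20.7% of the 570 and 5.74% of the 2056. Over all eligible genes, 13.7% were hosts of lower-ranked regions. Gene lists are read against the 3.81% of eligible genes that were hosts, and longer genes offer more exon to a summit, so the shares of members and of exon bases are given for lists well above or below it.

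The nuclear hormone receptor list had 11 hosts of 244 eligible genes (4.51%), near the background. They took 1.84% of members and 1.42% of exon bases. Strongest after nhr-68 were nhr-201 (23.1), nhr-23 (21.6), which drives moulting, and nhr-86 (20.6). The nhr-201 and nhr-23 summits, like that of nhr-68, fell in the promoter window of another transcript start, and that of nhr-86 did not. When every transcript start opened a promoter window, the list had 7 hosts. In nhr-201 the ranks were 455 in replicate 1 and 1963 in replicate 2, in nhr-23 they were 3325 and 2568, and in nhr-86 4044 and 906.

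From the list for propionate breakdown and the methionine cycle, 2 of 19 eligible genes were hosts, metr-1 and mthf-1. Together they held 6 members, 1.00% of all, against 0.258% of lower-ranked regions in this list and 0.145% of exon bases. Of the 6, 4 were in metr-1, where the first pair shared its replicate regions. Lower-ranked exonic regions had 5 of the 19 genes as hosts (26.3%), against 13.7% of all eligible genes. The count of genes was 2 without replicate 1 and 3 without replicate 2. Genes of oxidative phosphorylation gave 4 hosts of 35 (11.4%): ucr-2.3, a complex III subunit gene, and cox-19, cox-10 and cox-15, which serve the assembly of cytochrome c oxidase. They held 0.669% of members, against 0.129% of lower-ranked regions and 0.127% of exon bases. Their signals were 19.6, 18, 17 and 15.8. This count rested on replicate 1, since without it, in the 5000 strongest of replicate 2, there was none, and without replicate 2 there were 4.

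Chemoreceptor genes, a large family of putative odorant receptors, had 16 hosts of 1244 (1.29%), under the background, with 2.68% of members and 4.40% of exon bases. After srh-2 came sra-35 (24.5), sre-21 (23.2) and srh-276 (19.7). The count was 25 without replicate 1 and 27 without replicate 2. F-box and BATH genes had 3 hosts of 354 (0.847%; 0.502% of members, 1.45% of exon bases) and C-type lectin genes 3 of 223 (1.35%; 0.502% and 0.994%), led by fbxa-197 (16.5) and clec-168 (17.8).

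Of the structural and housekeeping lists in this paragraph, cuticle collagens lay under the background share of genes and the others above it. Counts were 2 to 4 genes each, and these sides of the background are those of the pooled list. Without replicate 1 and without replicate 2, hosts in all numbered 619 and 725. Cuticle collagens then had 5 and 2 hosts, muscle filaments 3 and 5, and lipid and yolk genes 8 and 7. Vacuolar ATPase and lysosome genes had 2 and 1, RNA processing genes 4 and 1, and the nucleolar and snoRNP list 1 and 3. Chaperones (3.33%) and the proteasome list (3.45%), given below, were a little under the background, and several such lists had no host. Cuticle collagens had 2 of 140 (1.43%; 0.334% of members, 0.546% of exon bases), dpy-4 (26.3) and col-17 (23.5). Muscle filament genes had 2 of 27 (7.41%), unc-22 (22.1) and ttn-1 (18.9), giant proteins of the sarcomere, each in its 3′ UTR. They held 0.334% of members against 1.02% of exon bases, so by exon length this list was under its share. Lipid and yolk genes had 4 of 84 (4.76%), led by pod-2 (20.4), the acetyl-CoA carboxylase gene, and vacuolar ATPase and lysosome genes 4 of 56 (7.14%; 0.669% of members, 0.258% of exon bases), led by vha-8 (21.5). RNA processing genes had 4 of 61 (6.56%; 0.669% and 0.490%), among them prp-6 (22.4), mog-5 (19.0) and rnp-6 (16.7), and the nucleolar and snoRNP list 2 of 22 (9.09%; 0.502% and 0.226%), ncl-1 (18.8) and larp-5 (17.4 and 16.6).

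Chaperones had 2 of 60, dnj-25 (17.1) and dnj-21 (16.9), homeobox genes 2 of 62, unc-30 (23) and ceh-16 (18), the proteasome list 1 of 29, rpt-2 (16.9), and heterochronic genes 1 of 10, lin-66 (20.8; 0.167% of members, 0.152% of exon bases). Of the tissue lists, hypodermis and seam markers had 2 of 16 (12.5%; 0.334% of members, 0.236% of exon bases), nhr-23 and mlt-11 (16.3), and intestine markers 1 of 11, end-1 (27; 0.167% and 0.0695%), an endoderm GATA factor gene. No host came from the other 9 of the 27 lists, which hold ribosomal proteins, translation factors, basement membrane, histones, actins and tubulins, glycolysis, and markers of neurons, pharynx and germline. Their eligible genes numbered 38, 34, 9, 10, 16, 16, 20, 12 and 18 in that order. At the background share, lists of such size hold few hosts or none. Without replicate 1, translation factors had 2 hosts and basement membrane 1. Without replicate 2, neuron markers had 4, translation factors 1 and glycolysis 1.

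Members were richer in GC than regions of the other classes. The median was 35.6% (interval 35.0 to 36.5), against 33.8% for promoter, 32.4% for intron and 32.5% for intergenic regions. Lower-ranked exonic regions had 36.8%. Within coding summits the medians were 36.8% and 37.4%, and within 3′ UTR summits 32.9% and 32.9%, for members and lower-ranked regions. The range over members was wide, with the highest in the dpy-4 region at 55.9% and the lowest, 21.2%, in those of C25F9.12, mlt-11 and acc-1. Any sequence of 31 bases found elsewhere in the nuclear genome was held by 5.35% of members, against 7.79% of lower-ranked, 10.5% of promoter, 15.9% of intron and 11% of intergenic regions. In none of the 598 members was 50% or more of the region repeated in this way.

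Short sequence motifs were searched on both strands in the whole region of 340 bp. AGGTCA, the half-site bound by many nuclear receptors, was in 6.69% of members, against 6.28% of lower-ranked exonic, 8.46% of promoter, 8.65% of intron and 9.32% of intergenic regions. TGATAA, bound by GATA factors, was in 31.4%, against 32.1% of lower-ranked exonic, 29% of promoter, 28.1% of intron and 32.5% of intergenic regions. CACGTG, the E-box, was in 8.03%, against 6.24%, 5.62%, 6.16% and 6.21% in that order. CTGCGTCTC was in 0.502% of members and 0.645% of lower-ranked exonic regions, against 4.23% of promoter, 2.67% of intron and 5.18% of intergenic regions. Each share is a description, and a letter match is not a binding site.

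GAGAGAGA was in 23 members (3.85%), against 41 of the lower-ranked exonic regions (1.76%), 3.79% of promoter, 3.59% of intron and 5.80% of intergenic regions. The share was 2.62% in the list of replicate 2 and 3.05% in that of replicate 1. Coding windows of strong members that hold it follow, with the match on either strand in capitals, 5′ to 3′ on the minus strand, the strand of both genes, from the same build. The capitals here do not mark the summit, and neither window reaches the summit of its region. That of the chemoreceptor gene sra-35 is at chrII:4524963-4525022, and that of pyc-1, in its second member, at chrV:11819319-11819378.
sra-35: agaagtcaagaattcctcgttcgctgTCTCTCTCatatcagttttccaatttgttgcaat
pyc-1: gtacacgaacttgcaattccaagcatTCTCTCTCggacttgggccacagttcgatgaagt

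Small RNA genes overlapped 6 members (1.00%, interval 0.369 to 2.17), against 12 of the 2324 lower-ranked exonic regions (0.516%, 0.267 to 0.900). These intervals overlap. The strongest was the W09D6.5 region, over sls-2.14, an SL2 spliced leader RNA gene, with a signal of 26.1 and ranks 238 in replicate 1 and 346 in replicate 2. The plpr-1 region, over the snoRNA gene T06D8.11, had 23.7 with ranks 158 and 17097. Those in ltd-1 (17.6) and rpt-2 overlapped snoRNA genes, and those in C18H7.1 (17.4) and timm-23 (16.9) tRNA genes. For these 6 the reads of the small RNA gene and of the host exon cannot be told apart.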

How the data were processed

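Per the deposited file list, the authors called peaks and background regions against a control from each replicate's alignments and from both pooled, and kept a final set by IDR. Aligner, caller and IDR settings: not given in the sources used here. The signal of each region and the −log10 of its q value are as the authors deposited them. Signals were compared only within 1 list, and replicates by rank. The lists used hold no read counts, so depth is unknown. Regions in build ce11 were annotated with Ensembl release 115 (WBcel235) and the RefSeq sequence, using Python 3.11.15, numpy 2.4.6, pandas 2.3.3 and scipy 1.17.1. A gene start was the 5′ end of the gene record, and exon class came before intron. The part of the host came from all its annotated transcripts, with coding before 5′ untranslated and that before 3′ untranslated. Exon number follows 1 transcript, the longest in summed exons that covers the summit. Overlap meant at least 1 bp. The position code was tested on simulated data.

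Members, motifs and gene lists were chosen with earlier results of these data known, so no test was made. Named were the 20 strongest members, those in the final set, 3 on each side of rank 5000, and hosts of 3 or more. Up to 4 hosts per list, the 5 members best by the worse of their replicate ranks, and members over small RNA genes were named too. Of chemoreceptor and translation factor lists, the name patterns were corrected after their hosts were seen. mthf-1, a pair of pyc-1 members, and the highest and lowest GC were also named after their values were seen. Lists in ce10 were not used.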

Additional observations from a re-analysis of the deposited data

How the results depend on the processing

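Of 79 alternative values of the main results, 50 moved by less than their interval (counts: 1.5 times) and 29 by more. With the 2500 and the 10000 strongest regions, members numbered 282 and 1300, hosts 270 and 1198, those in both replicate lists 73.4% and 48.2%, those among the 5000 strongest of both 18.4% and 4.69%, and coding summits 63.8% and 73.8%. At 10000 the exon share was 16.1% and the 3′ UTR share 22.9%, and at 2500 the median distance from the start was 2821 bp. A promoter window of 500 bp upstream to 200 bp downstream gave an exon share of 18.4% and a median distance of 2092 bp. Taking every transcript start gave 13.3% and 6 members in the final set. An overlap of at least 50% gave 53.3% in both lists and 6.35% among the strongest of both. GC in 100 bp around the summit was 37%. Without replicate 1 and without replicate 2, ranking by the other list, the exon share was 16.1% and 18.7%, and 36.6% and 34.1% were in both lists. Such regions are in their own list by construction, so this counts overlap with the left-out list only. It is not the same measure as the 61.9% of pooled members. In the same order the coding share was 70.3% and 79.0%, the 3′ UTR share 26% and 17.8%, the last exon share 40.6% and 31.8%, median GC 35.3% and 36.9%, and members overlapping the final set 11 and 7. No paired analysis was possible because there is 1 group. The cause of these shifts was not tested. Of 224 values of motifs and gene lists, 59 moved. The comparison within each replicate list was chosen after seeing the data. Unknown depth, an unstated signal scale and 2 replicates limit all values.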
